A study of Mus musculus with 4 samples.

Results

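The AP-1 and BATF factors described here are 10 genes taken by name from the 55359 gene identifiers of the count table. They are Batf, Batf2 and Batf3, the JUN genes Jun, Junb and Jund, the FOS genes Fos, Fosb and Fosl2, and the small MAF gene Maff. They were measured by bulk RNAseq in T8, a pre-B cell acute lymphoblastic leukemia line that grew out of 1 tumor-bearing Irf4-/- mouse and carries Jak3 mutations. Both groups are Irf4-/- and were spun with a retrovirus (RV) coding for GFP alone (EV-RV, 2 libraries) or for GFP plus IRF4 (IRF4-RV, 2 libraries), and the still viable cells were collected 24 h later. The question is how the genes of IRF4's AP-1 partners stood when IRF4 was put back. T8 is a single line, and the promoter of the vector and the share of transduced cells in each library were not given in the sources used here. The protocol text attached to the samples speaks of T11, another line of the same model, whereas the titles and the tissue label name T8, which was used. The design text calls the libraries biological replicates but does not say that they came from separate cultures, so the p-values measure the spread between these libraries.

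AP-1 is a pair of basic leucine zipper (bZIP) proteins that grip DNA together, usually 1 JUN with 1 FOS protein, on the element TGANTCA, or with ATF partners on the longer CRE-type element TGANNTCA. BATF, BATF2 and BATF3 have a short zipper and no activation domain of their own. Each pairs with a JUN protein, and the BATF-JUN pair recruits IRF4 or IRF8 to composite elements, in which an IRF site (GAAA, or TTTC on the other strand) stands beside the AP-1 element. In lymphocytes this trimer drives effector T cells, antibody class switching and plasma cell genes. Many FOS and JUN genes are immediate early genes, switched on within minutes of a growth factor or stress signal. The small MAF proteins such as MAFF are bZIP factors without an activation domain that pair with CNC and BACH proteins.

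Promoters are shown for the 3 genes that passed the test, Batf, Jun and Jund, because these are where an AP-1, CRE-type or IRF element would stand next to a measured change. The sequences are RefSeq's on the GRCm38.p6 build, read 5′ to 3′ on the gene's strand, and hold the bases before the start site; where RefSeq and GENCODE M21 put the start differently, only bases before both are given. Capitals mark a match to a motif that was searched.
Batf, chr12:85686470-85686668 (+ strand): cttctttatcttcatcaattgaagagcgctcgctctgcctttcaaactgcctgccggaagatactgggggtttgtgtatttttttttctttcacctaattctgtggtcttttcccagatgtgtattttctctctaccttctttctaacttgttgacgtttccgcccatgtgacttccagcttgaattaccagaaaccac
Jun, chr4:95052223-95052472 (- strand): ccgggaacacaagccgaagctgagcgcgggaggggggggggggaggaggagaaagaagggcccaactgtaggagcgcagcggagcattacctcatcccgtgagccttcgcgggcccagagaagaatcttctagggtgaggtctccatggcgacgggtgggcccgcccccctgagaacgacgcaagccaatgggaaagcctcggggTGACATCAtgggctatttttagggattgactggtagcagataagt
Jund, chr8:70697489-70697738 (+ strand): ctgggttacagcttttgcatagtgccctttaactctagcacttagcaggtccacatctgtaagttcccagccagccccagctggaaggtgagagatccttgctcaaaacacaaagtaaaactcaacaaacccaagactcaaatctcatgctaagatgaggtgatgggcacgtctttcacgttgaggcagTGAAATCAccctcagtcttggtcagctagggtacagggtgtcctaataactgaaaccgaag
The Jun promoter holds TGACATCA with its first base at position -45 from the start, and TGAGCTCA at position 3, just past the stretch shown. Jund holds TGAAATCA at position -61. Its RefSeq start lies 1210 bases upstream of the GENCODE start, so this window stands well before the shorter gene model. Batf holds no match to any of the 6 motifs. Each motif was searched on both strands in windows running from 250 bases before to 50 bases after the start, and 9 of the 10 genes had such a window, 11 windows in all because Maff has several starts. Batf2 had none.

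Across these 11 windows the AP-1 element TGANTCA was found in 0, against 7.81% of all 32851 promoter windows. The CRE-type element TGANNTCA was found in 4, against 14.1% of all windows: the Jun and Jund windows above and 2 of the Maff windows, with TGACGTCA at position -29 of the second and TGACATCA at position -45 of the third. Neither composite element was found in any of the 11, whether GAAA directly followed by TGANTCA (0.125% of all windows) or TTTC, any 4 bases, then TGANTCA (0.119%). Both contain the AP-1 element and so cannot occur without it. A pair of such IRF sites, GAAA, any 2 bases, GAAA, occurred only in Fosl2 (3.44% of all windows), and the ETS-IRF element GGAA, any 2 bases, GAAA in 0 of 11 (2.72%). These counts describe letters in short windows and say nothing of binding.

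The libraries held 31230223 to 37817752 counted reads, and a count of 3, the floor used for a gene at 0, was worth 0.0824 to 0.0952 CPM, for counting error only. CPM is the count scaled to 1000000 reads, after the library's total was multiplied by its TMM factor, a scaling that sets the bulk of genes equal between libraries. Irf4 itself, the transduced gene, stood at 242 and 241 CPM in the EV-RV libraries and at 2822 and 2491 CPM in the IRF4-RV libraries, a log2 fold change of 3.46 ± 0.091 (SE, edgeR adjusted p = 1.14e-06), in the direction of the labels. Reads on Irf4 were thus counted in the EV-RV libraries as well, although both groups are Irf4-/-. The B lineage markers were present in every library at a summed 3476 and 3644 CPM in the EV-RV libraries against 2451 and 2449 CPM in the IRF4-RV libraries, with 3 of the 8 tested lower, 0 higher, and Rag1 at 0 or 1 counts. The count of B lineage markers called was 5 without EV-RV replicate 2 or IRF4-RV replicate 1.

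Of the 10 genes, 8 had enough counts to be tested and 3 of those changed at a false discovery rate of 0.1: Batf and Jund fell and Jun rose. Among all 14637 genes tested, 29.7% were called (16.0% higher, 13.7% lower), so 3 of 8 is a share near the background and is not a result about the family. The median log2 fold change of the 8 was -0.10, against 0.01 for all genes tested. The genes that carry most of the RNA, Jund, Junb and Batf, moved by less than 1.5-fold, and the largest change was in Jun, the scarcest of the tested genes in CPM. Fos, Fosb, Fosl2, Junb and Maff did not pass. Without IRF4-RV replicate 1 the number called was 5, with Fos and Fosb added, and without either EV-RV library it was 2, with Jun lost. A group left with 1 library is assumed to vary like the other group, so these counts carry that limit. With library size alone as the scale, the median of all genes moved to -0.08 and 37.8% of the called genes were higher in place of 53.8%. The directions of Batf, Jun and Jund were the same under that scale.

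**Figure D1:**
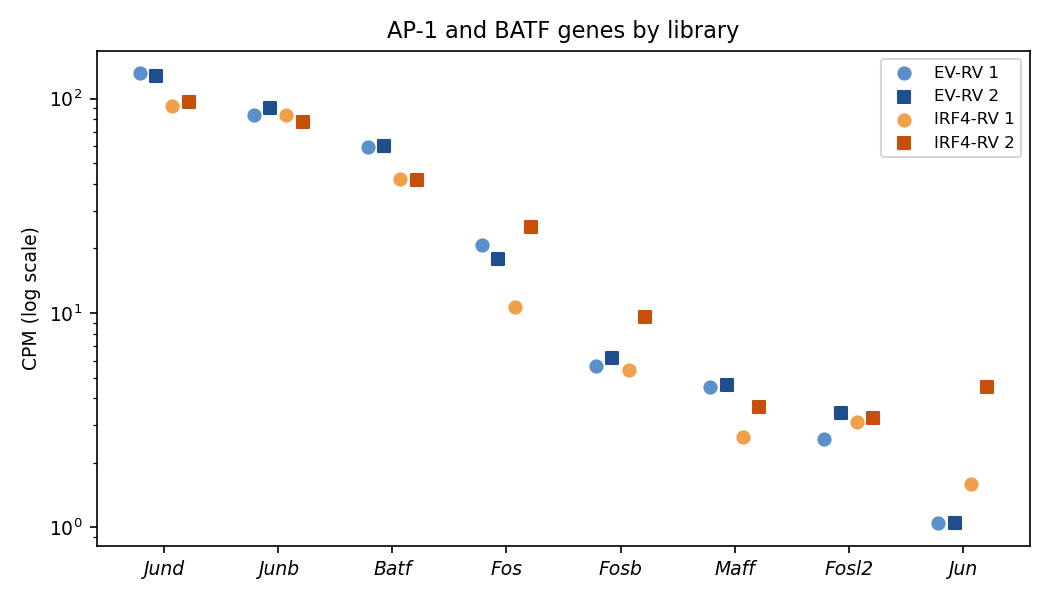
CPM (log scale) of the 8 tested genes in each of the 4 libraries, with EV-RV in blue and IRF4-RV in orange, replicate 1 as circles and replicate 2 as squares; each point is 1 library. Batf and Jund sit lower in both IRF4-RV libraries, while for Fos, Fosb and Jun the replicate 2 IRF4-RV library (25.2, 9.59 and 4.53 CPM) stands above the other 3.

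**Figure D2:**
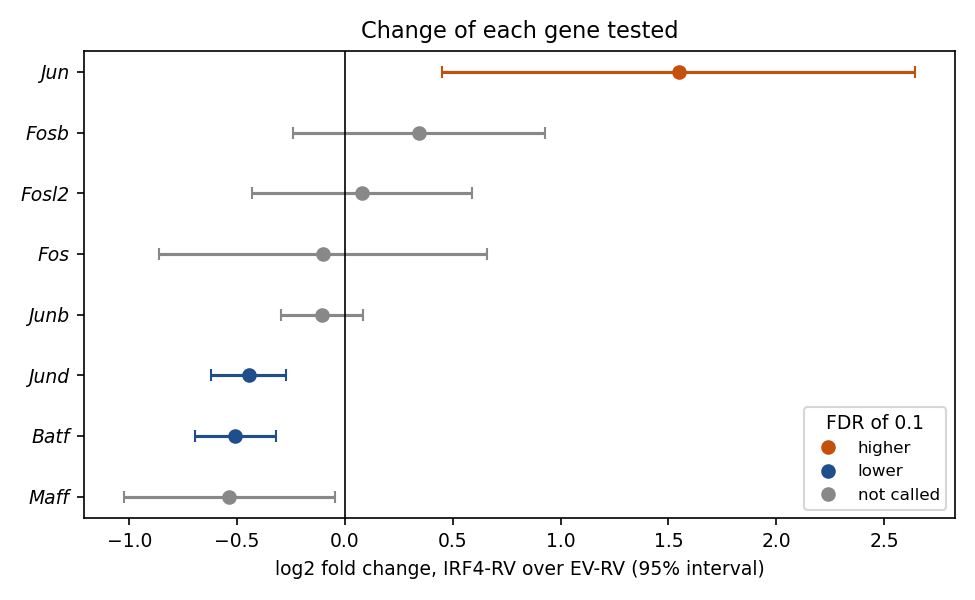
Log2 fold change of IRF4-RV over EV-RV for each tested gene with its 95% interval from the edgeR fit (2 libraries per group), colored by the call at a false discovery rate of 0.1. The intervals of Batf and Jund are narrow and below 0, that of Jun is wide and above 0 (0.45 to 2.64), and that of Maff ends just below 0 without passing after adjustment.

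Among the BATF genes, only Batf was expressed at a level that could be tested, and it fell with IRF4. Batf (ENSMUSG00000034266, 3 exon blocks on the + strand of chr12:85686669-85709087, GRCm38) pairs with JUN proteins to bring IRF4 to DNA. It had 1977 and 1893 counts in EV-RV cells against 1434 and 1512 in IRF4-RV cells, or 59.3 and 60.0 against 42.3 and 41.5 CPM. The replicates of each group were close and the groups did not overlap. The log2 fold change was -0.51 ± 0.080 (SE, 95% interval -0.69 to -0.32, edgeR adjusted p = 0.0035), 1.42-fold lower with IRF4-RV. Batf2, an interferon-induced relative, had 0 counts in all 4 libraries. Batf3, the factor of cross-presenting dendritic cells, had 1 and 2 counts in EV-RV cells against 2 and 0 in IRF4-RV cells, under the floor in every library, so no difference in either gene was detectable at this depth.

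Of 12 markers of T and NK cells, which also use Batf, 4 could be tested, 2 were lower, 0 higher and 2 not called. Trac had 613 and 603 counts in EV-RV cells and 391 and 420 in IRF4-RV cells (log2 fold change -0.70 ± 0.101, SE), and Zap70 had 950 and 877 against 688 and 708 (-0.50 ± 0.092). Cd5 (-0.46 ± 0.432) and Klrb1c (0.13 ± 0.340) were not called. The defining T cell genes were at or near 0 in every library, with Cd3d at 2 to 5 counts, Cd3e at 0 to 2, Cd3g at 0 or 1 and Cd4 at 0 to 3, Nkg7 was at 0 to 2, and Cd8a, Ncr1 and Gzmb were at 0 in all 4 libraries. The summed level of the list, nearly all of it Trac and Zap70, was 49.9 and 48.9 CPM in the EV-RV libraries and 33.9 and 33.4 CPM in the IRF4-RV libraries. For Batf, as for any gene in bulk RNA, fewer cells that express it and less RNA per cell cannot be told apart.

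Of the JUN genes, Jund fell, Jun rose and Junb did not pass. JUND is the JUN protein that most resting cells hold, and Jund (ENSMUSG00000071076, 1 exon, + strand, chr8:70698949-70700616) was the most abundant of the 10 genes, with 4376 and 4007 counts in the EV-RV libraries against 3135 and 3525 in the IRF4-RV libraries. This is 131 and 127 CPM against 92.6 and 96.8 CPM, with the groups apart. The log2 fold change was -0.45 ± 0.075 (SE, 95% interval -0.62 to -0.27, edgeR adjusted p = 0.0044), 1.36-fold lower with IRF4-RV. The antisense gene Gm11175 covers 877 bases of this exon and was listed at 0 counts in every library. The strand setting of the counting and the handling of reads that lie on both genes were not given in the sources used here. If such reads were left out, the level of Jund per kb, scaled by all 1668 bases, would be too low.

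Junb (ENSMUSG00000052837, 3 exon blocks, - strand, chr8:84974484-84978718), which encodes a weaker activator that partners BATF in T cells, held 2797 and 2839 counts in the EV-RV libraries against 2822 and 2844 in the IRF4-RV libraries. After scaling these were 83.8 and 90.0 against 83.3 and 78.1 CPM. The groups did not overlap, but the gap between them was smaller than the spread inside either. The log2 fold change of -0.11 ± 0.082 (SE, 95% interval -0.30 to 0.08, edgeR adjusted p = 0.401) did not pass, and the interval leaves no room for a fall as large as the estimates of Batf or Jund. It shares 173 exonic bases with Prdx2 on the other strand, and Prdx2 rose (log2 fold change 0.31 ± 0.090).

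Jun (ENSMUSG00000052684, 1 exon, - strand, chr4:95049034-95052222), the founding and most strongly activating JUN gene, was scarce. The counts were 35 and 33 in the EV-RV libraries and 54 and 165 in the IRF4-RV libraries, or 1.05 and 1.05 against 1.59 and 4.53 CPM. Both IRF4-RV libraries were above both EV-RV libraries, but replicate 2 held 2.84 times as much as replicate 1. The log2 fold change was 1.55 ± 0.472 (SE, 95% interval 0.45 to 2.64, edgeR adjusted p = 0.0512), 2.92-fold higher. Without the replicate 2 IRF4-RV library it was 0.61 and no longer passed (adjusted p = 0.399), and without either EV-RV library it kept its size but not the call (1.54 and 1.55; adjusted p = 0.139 and 0.136), so the rise of Jun rests on 1 library. The antisense gene Junos, which shares 232 exonic bases with Jun, had at most 0.270 CPM in the EV-RV libraries and 3 counts in the replicate 2 IRF4-RV library.

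Summed over the subfamily and scaled by exon length so that genes can be set beside each other, JUN RNA stood at 115 and 116 CPM per kb in EV-RV cells against 92.2 and 93.4 CPM per kb in IRF4-RV cells. Jund made up 68.1 and 65.9% of it in the EV-RV libraries against 60.2 and 62.1% in the IRF4-RV libraries, and Junb 31.6 and 33.8% against 39.3 and 36.3%. Jun stayed a trace, at 0.285 and 0.284% against 0.542 and 1.52%, so its rise added little to the JUN pool. These shares are descriptions with no test, and that of Jund would be too low if reads on bases shared with Gm11175 were left out.

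**Figure D3:**
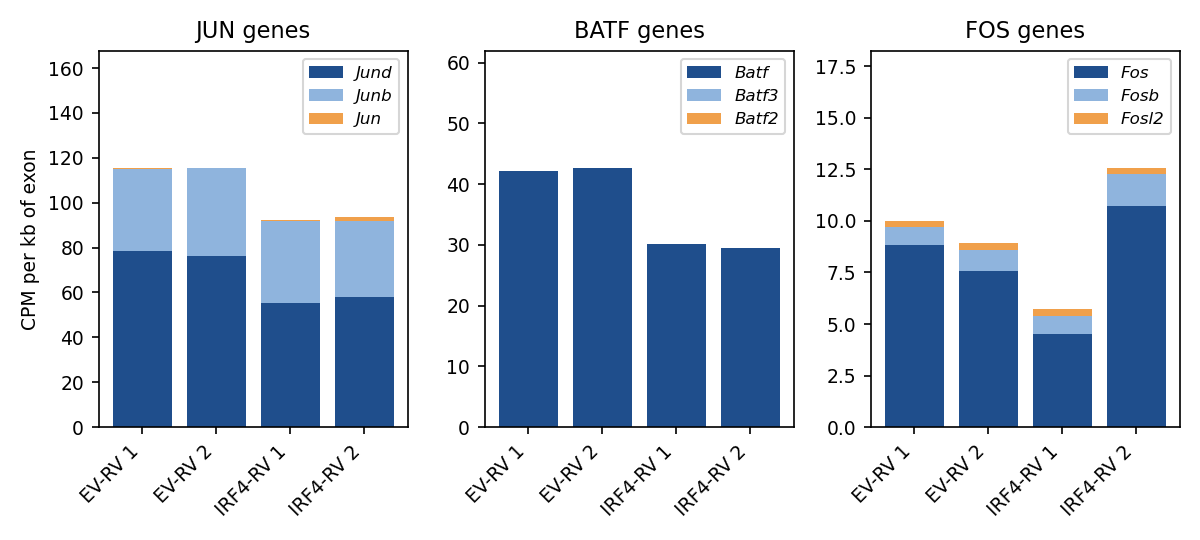
Stacked bars of CPM per kb of exon for the JUN, BATF and FOS genes in each library; each panel has its own axis from 0, and each color is 1 gene. JUN and BATF totals are lower in both IRF4-RV libraries, while the FOS total is lowest in IRF4-RV replicate 1 (5.72) and highest in IRF4-RV replicate 2 (12.6).

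None of the 3 FOS genes passed, and for Fos and Fosb this goes with IRF4-RV libraries that differed from each other. Fos (ENSMUSG00000021250, 4 exon blocks, + strand, chr12:85473890-85477273), the classic immediate early gene, held 692 and 563 counts in the EV-RV libraries against 361 and 918 in the IRF4-RV libraries. In CPM these were 20.7 and 17.9 against 10.7 and 25.2, so that 1 IRF4-RV library lay below both EV-RV libraries and the other above both. The log2 fold change of -0.10 ± 0.328 (SE, 95% interval -0.86 to 0.66, edgeR adjusted p = 0.861) averages the 2. Without IRF4-RV replicate 2 it was -0.85, and without IRF4-RV replicate 1 it was 0.36: each of these libraries alone sets the direction. Such a fit takes its spread from the EV-RV libraries alone, so only the size is given here.

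Fosb (ENSMUSG00000003545, 2 exon blocks, - strand, chr7:19302696-19310051), another FOS gene, held 189 and 195 counts in the EV-RV libraries against 183 and 349 in the IRF4-RV libraries, or 5.66 and 6.18 against 5.40 and 9.59 CPM. Its groups overlapped, and the log2 fold change was 0.34 ± 0.252 (SE, 95% interval -0.24 to 0.93, edgeR adjusted p = 0.385). It was 0.67 without IRF4-RV replicate 1 and -0.13 without IRF4-RV replicate 2. Fosl2 (ENSMUSG00000029135, 4 exon blocks, + strand, chr5:32135801-32157842), which encodes FRA2, a FOS protein without the strong activation domain of FOS, had 86 and 108 counts against 105 and 118, or 2.58 and 3.43 against 3.10 and 3.24 CPM. Its 2 IRF4-RV libraries lay between the EV-RV libraries, and the log2 fold change was 0.08 ± 0.220 (95% interval -0.43 to 0.59, edgeR adjusted p = 0.836). Fos made up 79.3 to 88.3% of FOS RNA per kb in the 4 libraries.

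Maff (ENSMUSG00000042622, 6 exon blocks, + strand, chr15:79346621-79359076), a stress-inducible small MAF gene, held 150 and 146 counts in the EV-RV libraries against 89 and 133 in the IRF4-RV libraries, or 4.50 and 4.63 against 2.63 and 3.65 CPM. Both IRF4-RV libraries lay below both EV-RV libraries. The log2 fold change of -0.54 ± 0.211 (SE, 95% interval -1.03 to -0.05) missed the threshold (edgeR adjusted p = 0.114), and it passed in 5 of the 12 alternative settings.

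The replicates of IRF4-RV differed by unequal amounts across the 8 tested genes. Replicate 2 held 2.84 times the CPM of replicate 1 for Jun, 2.37 times for Fos, 1.77 times for Fosb and 1.39 times for Maff, but 0.98 times for Batf, 1.05 times for Jund, 1.05 times for Fosl2 and 0.94 times for Junb. Among the 11765 genes with a mean of at least 50 counts, the median difference between these libraries was 0.11 on the log2 scale, and 0.620% of genes differed by more than Jun did, 0.722% by more than Fos, 1.26% by more than Fosb and 4.19% by more than Maff. Between the EV-RV libraries these 4 genes were closer, with 98.6% of genes differing by more than Jun, 27.8% by more than Fos, 52.1% by more than Fosb and 82.8% by more than Maff. Fosl2 went the other way: 68.2% of genes differed by more between the IRF4-RV libraries but only 7.86% between the EV-RV libraries.

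Other genes were not all apart in the same way. The immediate early genes outside AP-1 had a median log2 ratio of 0.01 between IRF4-RV replicate 2 and replicate 1 over the 11 tested. Egr1, also a serum response gene, was at 1.14 times and Ier2 at 1.08 times. Ier3, the 1 gene of this list too low to be tested, was named after its values were seen. It had 4 and 18 counts in the IRF4-RV libraries against 5 and 8 in the EV-RV libraries. The heat shock genes had a median of 0.01 over the 10 tested, and the AP-1 targets a median of 0.26 over the 8 tested. A few genes chosen after their values were seen went the way of Jun and Fos: Dusp1, a phosphatase that turns MAP kinases off, had 335 and 683 counts in the IRF4-RV libraries, the FOS relative Fosl1 had 2 and 24, the AP-1 target Timp1 13 and 110 and the AP-1 target Plau 7 and 34. With EV-RV the counts were 639 and 496 for Dusp1, 4 and 11 for Fosl1, 19 and 43 for Timp1, and 11 and 18 for Plau. The share of reads on identifiers without a gene symbol was also highest in IRF4-RV replicate 2, at 0.486% against 0.203 to 0.322% in the other libraries. The part of either in the values of Jun, Fos and Fosb was not tested.

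**Figure D4:**
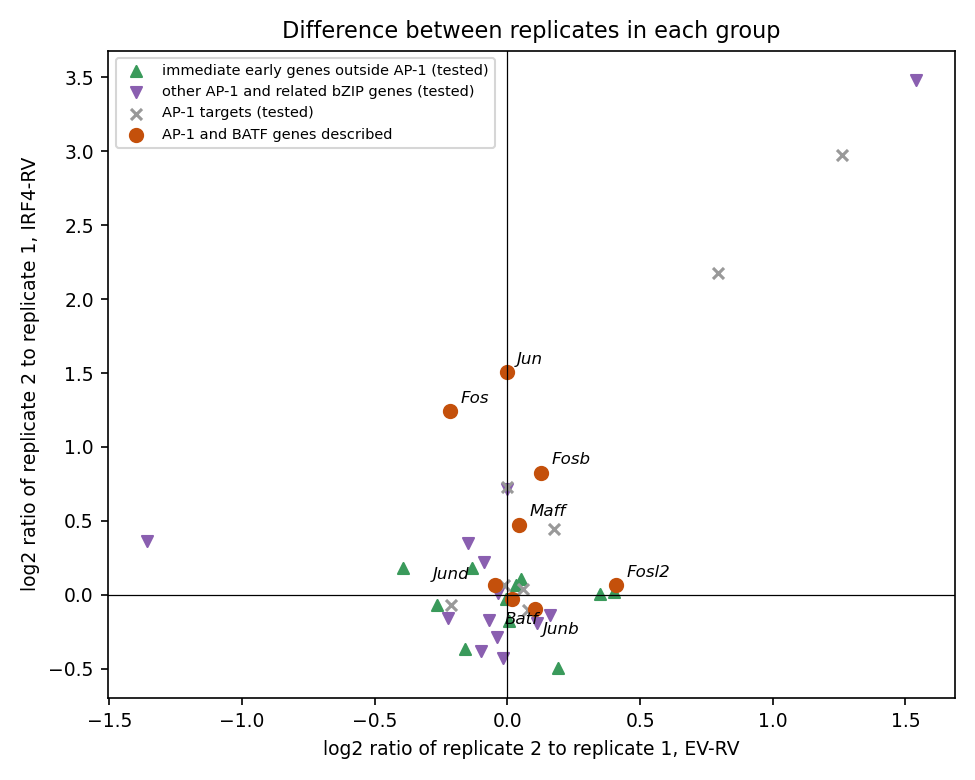
Log2 ratio of replicate 2 to replicate 1 in EV-RV (x axis) and in IRF4-RV (y axis) for the 8 tested genes and for the tested genes of 3 other lists; each point is 1 gene. Jun, Fos, Fosb and Maff lie above 0 on the y axis (1.51, 1.24, 0.83 and 0.48) and near 0 on the x axis, while Batf, Jund and Junb lie near 0 on both, Fosl2 lies at 0.41 on the x axis and 0.06 on the y axis, and the immediate early genes outside AP-1 scatter around 0 on the y axis; the 3 points highest on the y axis are Fosl1, Timp1 and Plau, at low counts.

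**Figure D5:**
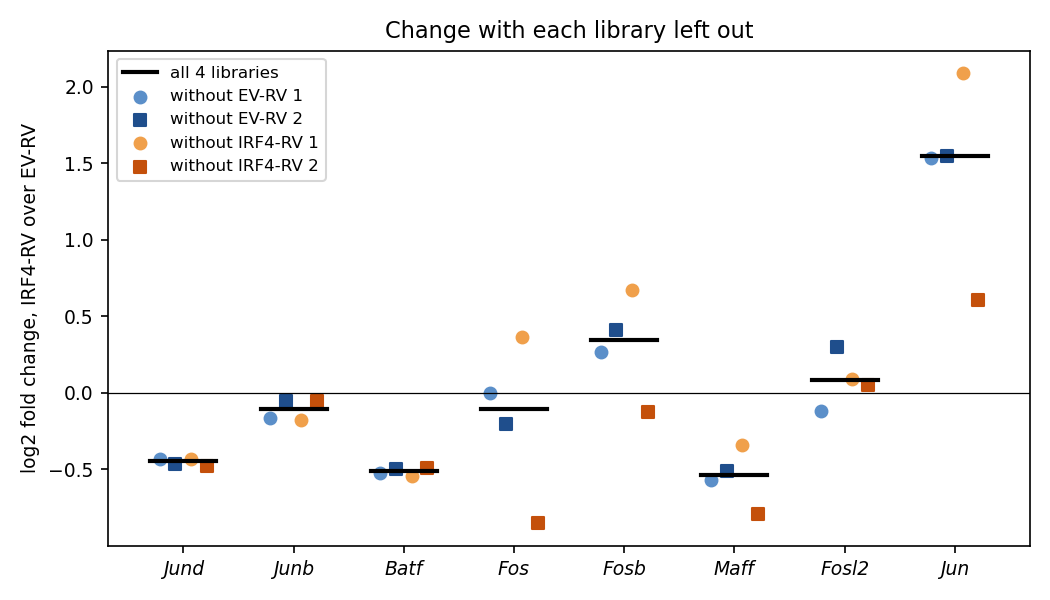
Log2 fold change of IRF4-RV over EV-RV for each tested gene with all 4 libraries (black bar) and after leaving out 1 library at a time (points). Batf, Jund and Junb barely move, whereas Fos runs from -0.85 to 0.36 and Jun from 0.61 to 2.09 according to which IRF4-RV library is left out.

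Ordered by CPM per kb with EV-RV, the genes ran Jund (77.4), Batf (42.4), Junb (37.8), Fos (8.21), Maff (1.76), Fosb (0.949), Jun (0.329) and Fosl2 (0.310), with Batf3 and Batf2 at or near 0. Neighbours Jun and Fosl2 did not differ beyond their spread, since Fosl2 ran from 0.266 to 0.354 CPM per kb around Jun's 0.328 and 0.329. With IRF4-RV the order of Batf and Junb turned: Batf was at 42.1 and 42.7 CPM per kb against 36.4 and 39.1 for Junb with EV-RV, and at 30.1 and 29.5 against 36.2 and 33.9 for Junb with IRF4-RV. The 2 genes did not overlap within either group. The lengths are the union of annotated exons, so these orders hold only as far as those exons are all used and counted. The counting was not known for the bases that Jund and Junb share with other genes.

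Set beside its partner, Irf4 RNA per kb was 1.17 and 1.15 times that of Batf in EV-RV cells, against 19.1 and 17.2 times in IRF4-RV cells. Both groups are Irf4-/-, so the Irf4 reads in the EV-RV libraries are not a measure of working IRF4. Irf4 was scaled by all 4903 bases of its annotated exons in both groups. Reads from the vector cover only what the vector holds of the gene, so a shorter insert would make the IRF4-RV ratios too low. These are ratios of RNA, not of protein.

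Among the other AP-1 and related bZIP genes, 13 of 16 could be tested, 2 rose, 1 fell and 10 were not called, with a median log2 fold change of 0.12. Atf3, a stress-induced bZIP factor that pairs with JUN proteins, rose most, from 99 and 88 counts to 741 and 929 (log2 fold change 3.04 ± 0.137, edgeR adjusted p = 8.12e-06). Bach2, a repressor of plasma cell genes that pairs with small MAF proteins, rose from 1211 and 1067 to 2296 and 1896 counts (0.77 ± 0.130). Jdp2, which encodes a JUN-pairing repressor, fell from 492 and 419 to 176 and 241 counts (-1.24 ± 0.150). Atf3 and Jdp2 were each farther from 0 than Batf or Jund, and their groups did not overlap.

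Some of these genes are neighbours, a point noticed after the values were seen. Jdp2 lies 46791 bases to the left of Batf, and Fos lies on the same side of the same chromosome. Batf and Jdp2 both fell, whereas the replicates of Fos lay on either side of EV-RV and its 1 tested neighbour within 100 kb, Tmed10, was not called (0.05 ± 0.073). Atf3 lies 61351 bases to the right of Batf3, which stayed under the floor while Atf3 rose; of the 5 tested neighbours of Batf3 within 100 kb, 1 rose and 2 fell. Around Maff, 3 of its 4 tested neighbours rose and 0 fell, led by Tmem184b, 1608 bases away, which went from 607 and 566 to 3331 and 3368 counts (2.40 ± 0.087). Of the 8 tested neighbours of Jund, 3 fell and 0 rose, and of the 14 of Junb, 2 rose and 2 fell. Of the 9 of Fosb, 1 rose and 3 fell, and of the 14 of Batf2, 2 rose and 2 fell. Among all genes tested 16.0% were higher and 13.7% lower, and counts over so few neighbours are not a result about these regions.

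The kinases that reach JUN and FOS did not move in 1 direction. Of 14 genes of the MAP kinase cascades 13 were tested, 2 rose and 2 fell, with a median of 0.03: Map3k1 (0.53 ± 0.150) and Map2k1 (0.52 ± 0.080), which lie upstream in the JNK and ERK cascades, rose, and Mapk8 (-0.86 ± 0.103) and Mapk14 (-0.45 ± 0.078), which encode JNK1 and p38 alpha, fell. Mapk8 went from 834 and 782 to 490 and 470 counts. Of the 10 factors that drive FOS and JUN transcription, 6 rose and 1 fell (median 0.44). Mef2c, which acts at the Jun promoter, rose from 1971 and 1727 to 5110 and 4810 counts (1.31 ± 0.094) and Elk4 by 0.60 ± 0.085, whereas Srf, the serum response factor that drives Fos, fell (-0.42 ± 0.089).

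Of 9 ubiquitin ligases and phosphatases that act on JUN, FOS or their kinases, 4 rose and 1 fell (median -0.0041). Dusp10 (1.62 ± 0.146) and Dusp5 (1.31 ± 0.095), which inactivate JNK or p38 and ERK, rose, from 144 and 123 to 462 and 423 counts and from 1016 and 1093 to 2650 and 3009 counts, and Dusp6 fell (-0.38 ± 0.090). Among 12 immediate early genes outside AP-1, 11 were tested, 5 rose and 2 fell (median 0.49). Klf2 (2.06 ± 0.115) and Btg2 (1.67 ± 0.094), both linked to quiescence, rose, while Egr1 (-0.71 ± 0.125) and Ier2 (-0.35 ± 0.081) fell. Jun was called higher, a rise that rested on 1 library, and Fos was not called.

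Of 6 other IRF4 partners, all tested, 4 rose and 1 fell (median 0.39). The Ikaros family gene Ikzf3 rose by 0.82 ± 0.123 and Etv6 by 0.56 ± 0.141. Spi1, which encodes PU.1, an ETS partner of IRF4, fell (-0.45 ± 0.086), from 1275 and 1182 to 955 and 997 counts. Spi1 and Batf, which encode partners of IRF4 at different composite elements, were both called lower, but most of the listed partners rose. Spib, named after its values were seen, was among these (0.23 ± 0.082, edgeR adjusted p = 0.0915).

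Genes that BATF and IRF4 control in mature lymphocytes were mostly silent in these cells. Only Prdm1, the plasma cell regulator BLIMP-1, of 10 genes could be tested. It rose from 8 and 9 to 46 and 35 counts (2.13 ± 0.442), and Il17a, Il23r and Ctla4 were at 0 counts in all 4 libraries. Of 12 AP-1 targets 8 were tested, 2 rose and 1 fell (median 0.51), and 6 were called without IRF4-RV replicate 1. Vim rose from 10618 and 9947 to 24431 and 27513 counts (1.22 ± 0.072) and Cd44 by 0.67 ± 0.099, and Lmna fell (-0.63 ± 0.150).

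Other signals moved with the groups and are given as values. Heat shock genes, which react to handling, had 0 of 10 higher and 5 lower (median -0.18, and 3 lower without IRF4-RV replicate 2), led by Hspa1a (-1.05 ± 0.137) and Hspa1b (-1.01 ± 0.093). The regulators of the interferon response had 5 of 6 higher and 1 lower (median 1.80), with Irf7 at 1.93 ± 0.127 and Irf8, the other IRF that BATF factors recruit, at -0.32 ± 0.070. Dendritic cell markers summed to 45.8 and 49.1 CPM in the EV-RV libraries and to 322 and 324 CPM in the IRF4-RV libraries, almost all of it Ccr7 (2.79 ± 0.080); 3 of 8 were tested, Flt3 rose as well (2.41 ± 0.313), and Itgax, Siglech and Cd209a were at 0 in all 4 libraries. Macrophage and granulocyte markers summed to 1.56 and 1.55 against 8.56 and 7.50 CPM, with 2 of 13 tested, Mrc1 higher (3.26 ± 0.221) and Adgre1, Mertk, S100a8 and S100a9 at 0 in all 4. The rise in this sum was nearly all Mrc1, at 0.719 and 0.729 CPM with EV-RV against 7.68 and 6.32 CPM with IRF4-RV. The part of these signals in the changes of Batf, Jund and Jun was not tested.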

How the data were processed

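RNA was extracted from T8 cells, prepared with an Ultra II kit and sequenced as 2 EV-RV and 2 IRF4-RV libraries. The deposited values are raw counts per Ensembl gene, made by the authors; their processing notes name FastQC 0.11.2, STAR 2.4.0j, featureCounts, DESeq2 1.22.1 and GRCm38. The study's methods name an Ensembl annotation; the strand setting and the treatment of multiply mapping reads were not given in the sources used here. Symbols, positions and exon lengths came from GENCODE M21, which named 52083 of the 55359 identifiers; the 3276 others (0.203 to 0.486% of reads) stayed in the fit.

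Counts were fitted with edgeR 4.0.16 (R 4.3.3): TMM, filterByExpr, quasi-likelihood F test, Benjamini-Hochberg adjustment over the 14637 genes tested, false discovery rate 0.1, no block. SE is the log2 fold change over the square root of F, and intervals use the fit's degrees of freedom. The step was tested on simulated data. Replicates of 1 group differed beyond sampling noise (chi-square per degree of freedom 13.1 and 14.1), and each library was counted as 1 sample. Such a spread does not show that the libraries came from separate cultures. Alternatives were DESeq2 1.42.0, other scalings and filters, a replicate block, a false discovery rate of 0.05, each library left out, and a robust fit chosen after seeing the data.

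The 10 genes and all lists were chosen with earlier results of these data known. All 10 and Irf4 are named; of each other list, up to 2 of the largest rises and 2 of the largest falls among called genes, besides marker genes at 0, genes next to or overlapping one of the 10, and those said to have been chosen after their values were seen. Some genes that this rule would name are not reported here. Protein sequences were not used here.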

Additional observations from a re-analysis of the deposited data

How the results depend on the processing

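Batf (-0.60 to -0.49) and Jund (-0.54 to -0.43) were called lower under all 12 alternatives, and Junb (-0.20 to -0.05) was called under none. Of the 10 genes, 5 were called without IRF4-RV replicate 1, 4 without IRF4-RV replicate 2 and 2 without either EV-RV library, so the count ran from 2 to 5 when 1 library was left out; in the same fits 3573 to 3646 of all genes were called against 4349. With 1 library left out, Fos ran from -0.85 to 0.36, Fosb from -0.13 to 0.67, Fosl2 from -0.12 to 0.30, Jun from 0.61 to 2.09 and Maff from -0.79 to -0.34; the lone library of an arm is then assumed to vary like the other group. Jun, at 1.55, had an adjusted p of 0.0512 and so fell out at a false discovery rate of 0.05. Fosl2 was -0.0071 with library size only. Maff was called lower with library size only (-0.63), with at least 1 CPM in at least 2 libraries (-0.55) and with a replicate block (-0.55). It was also called lower with the robust edgeR fit chosen after seeing the data (-0.54) and without IRF4-RV replicate 2 (-0.79). The replicate block called 4 of the 10 genes, adding Maff, and 6394 of all genes; the labels say nothing of pairing, and deviations of same-numbered libraries correlated at Pearson r = 0.284 across genes, with 2 pairs only. DESeq2 called 3 of the 10 genes and 3617 of all genes. The number called in each of the 14 other lists stayed within 1.5 times in 158 of 168 comparisons and moved further in 10; the heat shock count was 3 without IRF4-RV replicate 2. Where a value moved, the cause was not tested. Depth limits Batf2 and Batf3, which lie under the floor, and 2 libraries per group limit the genes whose replicates differ.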
